A study of Oreochromis niloticus with 8 samples.

Results

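Radial glia and astroglial genes were followed in the midbrain of Nile tilapia (Oreochromis niloticus), a warm-water cichlid, by their identifiers: fabp7, LOC100707896 (s100b), gfap, sox2, vim, glul and rsph9. The deposited lists of 29533 genes hold 6 of these 7 identifiers, and glul is not reported under that name. Its gene copies glula (LOC100534445) and glulb (LOC100700186), and the second fabp7 copy fabp7a (LOC100690908), are described beside the 6 members. The study compared polyadenylated RNA of 4 control libraries, from fish maintained at normothermy, with 4 libraries of fish exposed to cold. The title of the series places the work in oxytocin signalling and the homeostatic response to cold, and cold against control asks here which glial transcripts differed after the exposure. The temperatures, the length of the exposure, and the strain, age and sex of the fish are not stated in the labels. Nor do they say if each library is 1 animal or a pool. The p-values therefore describe only how these 8 libraries vary, and that variation may be technical.

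Radial glia are the progenitor and support cells that line the brain ventricles and send long processes to the brain surface. In teleost fish they persist in the adult brain and carry out much of the work that star-shaped astrocytes do in mammals, such as the uptake of glutamate and its conversion to glutamine. Their usual marker genes encode intermediate filaments (gfap and vim), a brain fatty acid chaperone (fabp7), a calcium-binding protein (s100b), a transcription factor of neural stem cells (sox2) and glutamine synthetase (the glul genes). The gene rsph9 has another role: it encodes a radial spoke head protein of motile cilia, which ependymal cells of the ventricle wall carry.

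Levels are in TPM (transcript abundance scaled by gene length and to the same total in each library), so read depth is unknown and levels of different genes can be set side by side. Change was tested with limma on log2(TPM + 1), for the 18863 genes that averaged 1 TPM or more in the control or the cold group. Changes are cold minus control on that scale, which understates the change of low genes, and a gene was called at a Benjamini-Hochberg adjusted p under 0.05. limma called 36.7% of all tested genes, 13.0% higher and 23.6% lower in cold, with a median log2 change of -0.089. After median-of-ratios scaling the share of called genes that were lower moved from 64.5% (2455 higher, 4459 lower) to 49.1% (3414 higher, 3295 lower). Regional markers, chosen after their values were seen, were read to check the labelled midbrain. The gene en1b, of the midbrain-hindbrain region, measured 19.35 to 37.6 TPM in control and 12.7 to 25.1 TPM in cold. The forebrain and midbrain gene otx2b measured 7.57 to 14.8 TPM in control and 5.71 to 10.7 TPM in cold. For both genes the groups overlapped, with the lowest value in cold and the highest in control. The hypothalamic peptide gene oxt measured 267 to 1354 TPM in control and 384 to 4607 TPM in cold. The hindbrain gene hoxb1a stayed at or below 0.0790 TPM. Control 4 (-31.3) and cold 2 (-33.3) stood apart on the second principal component, where the other 6 libraries lay between -2.67 and 22.9.

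All 6 members passed the filter on low values. Of them, sox2 and rsph9 fell in cold and s100b, fabp7, gfap and vim did not pass the test. None rose, also at an unadjusted p under 0.05 (0 higher, 2 lower by limma, against 3130 and 5609 of all 18863 tested genes). The share of members called lies near the 36.7% of all tested genes, and their median log2 change was -0.097. Both glutamine synthetase copies fell. The control and cold values of sox2, rsph9 and both synthetase copies did not overlap, as held for 36.9% of all tested genes. In bulk tissue, fewer cells of a type and less RNA per cell cannot be told apart.

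**Figure D1:**
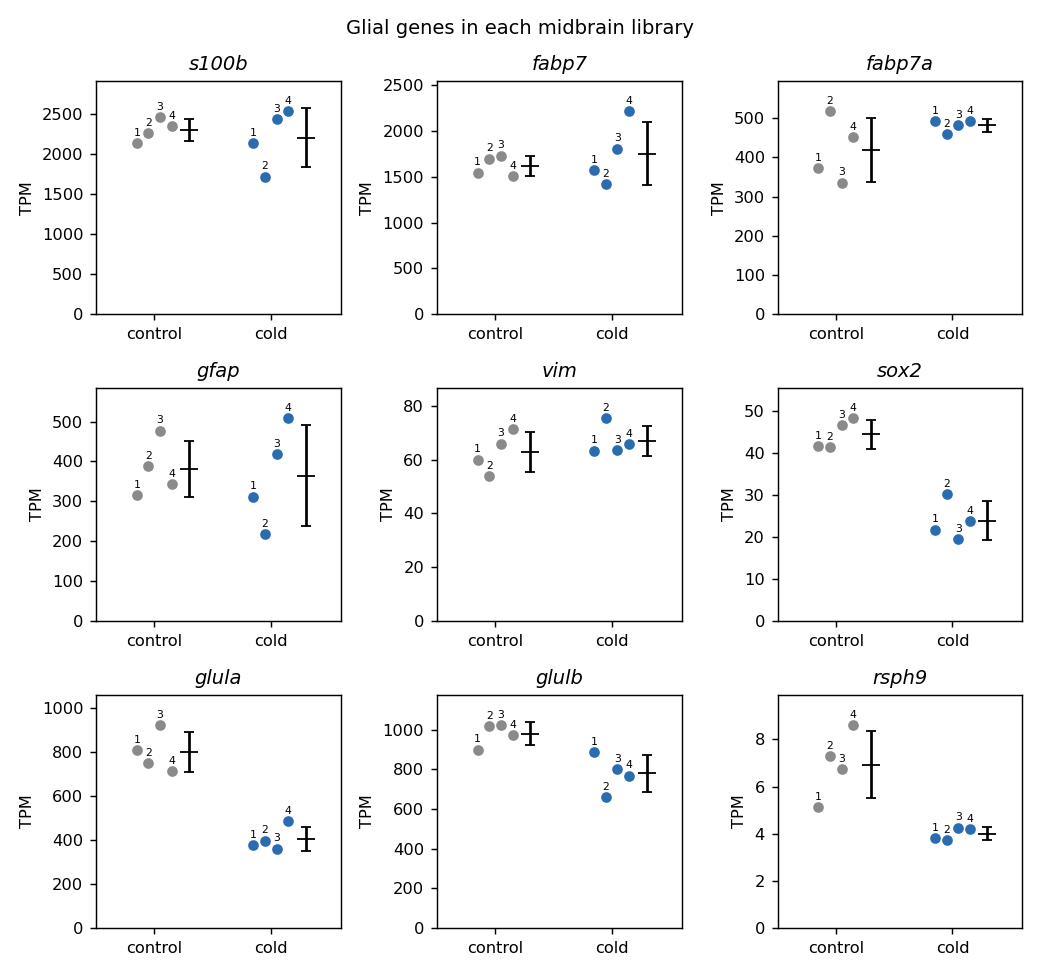
TPM of the 6 members and of the copies fabp7a, glula and glulb in each library, control in grey and cold in blue, numbered by replicate, with the mean and SD (n = 4) beside the points; each axis starts at 0. The control and cold points of sox2, glula, glulb and rsph9 do not overlap, whereas those of s100b, fabp7, fabp7a, gfap and vim do.

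The transcription factor gene sox2, which keeps neural progenitors undifferentiated, fell. In control 1 to 4 sox2 measured 41.6, 41.5, 46.6 and 48.4 TPM, and in cold 1 to 4 it measured 21.8, 30.4, 19.6 and 23.9 TPM. Every cold library lay below every control library, and the highest cold value came from cold 2. Means were 44.5 ± 3.504 TPM in control and 23.9 ± 4.64 TPM in cold (SD, 4 libraries each). On the log2 scale sox2 changed by -0.88 ± 0.12 (SE), with an adjusted p of 0.000814 by limma. The exact two-sided permutation p of 0.0286 is the smallest that 4 against 4 libraries allow. The call held in each of the 14 alternative fits. The related factor gene sox21, named after its values were seen, fell as well (19.98 ± 2.90 and 11.98 ± 0.901 TPM; -0.69 ± 0.10 on the log2 scale, adjusted p = 0.00114 by limma).

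The filament genes gave a different picture. Control libraries 1 to 4 held 315, 389, 477 and 343 TPM of gfap, the defining filament of astroglia, and cold libraries 1 to 4 held 312, 218, 418 and 508 TPM. The lowest and the highest value of the whole series were both in the cold group, cold 2 and cold 4, and the control values lay inside that range. Means were 381 ± 70.9 TPM in control and 364 ± 126 TPM in cold. The log2 change of -0.12 ± 0.24 did not pass (limma adjusted p = 0.741, exact permutation p = 0.743), and its 95% interval ran from -0.67 to 0.44. Without cold 2 it was 0.11 (adjusted p = 0.698), so no direction can be given for gfap.

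For vim, a filament shared by radial glia, vessels and mesenchymal cells, control 1 to 4 measured 60.0, 53.9, 66.0 and 71.4 TPM and cold 1 to 4 measured 63.4, 75.4, 63.5 and 65.7 TPM. Groups overlapped, with the highest value in cold 2, the library in which gfap was lowest. The log2 change of vim was 0.096 ± 0.094 (limma adjusted p = 0.462, 95% interval -0.12 to 0.31). The ratio of gfap to vim accordingly ranged from 2.89 in cold 2 to 7.74 in cold 4, against 4.81 to 7.23 in control. The ratio of sox2 to vim was 0.712 ± 0.0402 in control and 0.355 ± 0.0392 in cold (SD, n = 4), with no overlap. Another filament gene of radial glia, nes, named after its values were seen, measured 3.64 ± 0.721 and 2.46 ± 0.435 TPM and did not pass (limma adjusted p = 0.0558), although its groups did not overlap.

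The most abundant member was s100b, whose calcium-binding protein is a common astroglial marker in mammals. Levels of s100b in control 1 to 4 were 2139, 2259.7, 2454 and 2351 TPM, and in cold 1 to 4 they were 2135, 1716, 2429.9 and 2529 TPM. Control libraries lay close together (highest over lowest 1.147), and the cold libraries spread further on both sides (1.47), with cold 2 lowest. The log2 change of s100b was -0.077 ± 0.12 (limma adjusted p = 0.641, 95% interval -0.34 to 0.19). It was 0.012 after median-of-ratios scaling and 0.038 without cold 2, so its sign was not fixed.

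The fatty acid chaperone gene fabp7 measured 1545, 1696, 1729 and 1502 TPM in control 1 to 4 and 1569, 1416, 1805 and 2209.9 TPM in cold 1 to 4. Cold 4 was the highest library and cold 2 the lowest, and the groups overlapped. The log2 change of fabp7 was 0.095 ± 0.13 (limma adjusted p = 0.594, 95% interval -0.19 to 0.38), and -0.024 without cold 4. The second copy, fabp7a, measured 371.5, 517, 336 and 451 TPM in control and 493, 459, 481 and 492 TPM in cold (0.22 ± 0.12, limma adjusted p = 0.187). Control libraries scattered widely in fabp7a and cold libraries hardly at all, and without control 2 the gene passed as higher (log2 change 0.33, adjusted p = 0.0341). The fabp7 row exceeded the fabp7a row by 3.98 ± 0.877 times in control and 3.63 ± 0.649 times in cold. How reads shared by these similar copies were divided is not given in the sources at hand, so the split between them is uncertain, as it is for the glutamine synthetase copies.

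Glutamine synthetase joins ammonia to glutamate in glia, which removes synaptic glutamate and returns it to neurons as glutamine. For glula, control 1 to 4 measured 809, 749.6, 921 and 712 TPM and cold 1 to 4 measured 377, 397, 360.2 and 485 TPM. The highest cold library lay below the lowest control library. The mean of glula was 798 ± 91.1 TPM in control and 405 ± 55.4 TPM in cold, so it fell by 49.3% (log2 change -0.98 ± 0.11, limma adjusted p = 0.000247, exact permutation p = 0.0286). For glulb the control values were 900.2, 1021, 1024 and 973 TPM and the cold values 888, 659.9, 804 and 769 TPM. These groups nearly met, at control 1 and cold 1. The fall of glulb (-0.33 ± 0.089, limma adjusted p = 0.0176) did not pass after median-of-ratios scaling (-0.25, adjusted p = 0.0605). The ratio of glula to glulb moved from 0.816 ± 0.0955 to 0.526 ± 0.105 (SD, n = 4), and the glulb row was the higher of the pair in 8 of 8 libraries.

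The cilium gene rsph9 was the member of lowest level. Its values were 5.13, 7.28, 6.73 and 8.61 TPM in control 1 to 4 and 3.80, 3.73, 4.26 and 4.19 TPM in cold 1 to 4. Cold libraries lay close together below all control libraries. The mean of rsph9 was 6.94 ± 1.44 TPM in control and 4.00 ± 0.268 TPM in cold, so it fell by 42.4% (log2 change -0.65 ± 0.14, limma adjusted p = 0.00615, exact permutation p = 0.0286), and the call held in each of the 14 alternative fits.

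**Figure D2:**
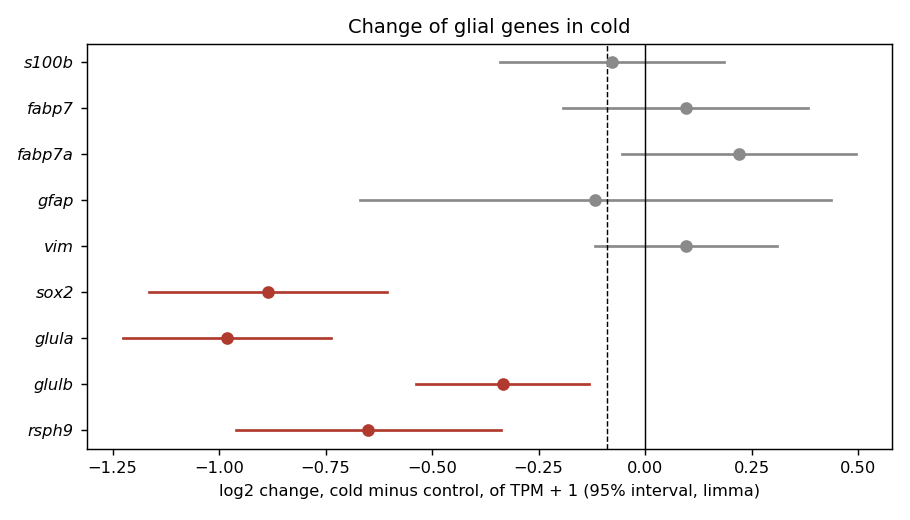
log2 change in cold of each member and copy on the log2(TPM + 1) scale, with limma's 95% interval; red marks called genes, grey the others, the dashed line the median of all tested genes (-0.089). Intervals of sox2, glula, glulb and rsph9 lie wholly below 0, and those of the other genes include it.

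In order of level, s100b (mean over 8 libraries 2252 TPM) exceeded fabp7 (1684 TPM) in 8 of 8 libraries, followed by glulb (879.8 TPM) and glula (601 TPM), again in 8 of 8 libraries each. Below them, glula exceeded fabp7a (449.9 TPM) in 4 of 8 libraries. These were the control libraries, and in every cold library fabp7a was the higher, narrowly in cold 4 (485 and 492 TPM). The order of glula and fabp7a thus differed between groups. The fabp7a row exceeded gfap (372.5 TPM) in 6 of 8 libraries, so this pair does not separate. The steps from gfap to vim (64.9 TPM), from vim to sox2 (34.2 TPM) and from sox2 to rsph9 (5.47 TPM) held in 8 of 8 libraries.

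Within the cold group the libraries stood in the same order for fabp7, s100b and gfap, with cold 2 lowest, then cold 1, cold 3 and cold 4. The other members ran differently: sox2 and vim were highest in cold 2, and rsph9 was highest in cold 3. Of the 52 tested genes of a wider astroglia list, 19 (36.5%) were lowest in cold 2 and highest in cold 4 among cold libraries, against 12.2% of all tested genes. Without fabp7, s100b and gfap it was 16 of 49 (32.7%). The share was 33.3% of 3 erythrocyte, 27.3% of 11 microglial, 21.7% of 23 proliferation, 19.0% of 21 neuronal, 18.8% of 16 oligodendrocyte and 3.53% of 85 motile cilium genes, and 1 of 10 endothelial genes showed it. These extremes were thus also seen outside the astroglia list, though the shares of the short lists rest on few genes. Only the lowest and the highest cold library were counted, not the whole order. This comparison was chosen after the values were seen. Regional markers varied between the same libraries: oxt measured 4607 TPM in cold 2 against 384 to 1365 TPM in the other cold libraries, and zic1, of cerebellum and dorsal brain, measured 114, 171, 291 and 459 TPM in cold 1 to 4. Control libraries held 185 to 381 TPM of zic1. The part of dissection or cell content in the spread of the glial genes, or in their change in cold, was not tested.

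**Figure D3:**
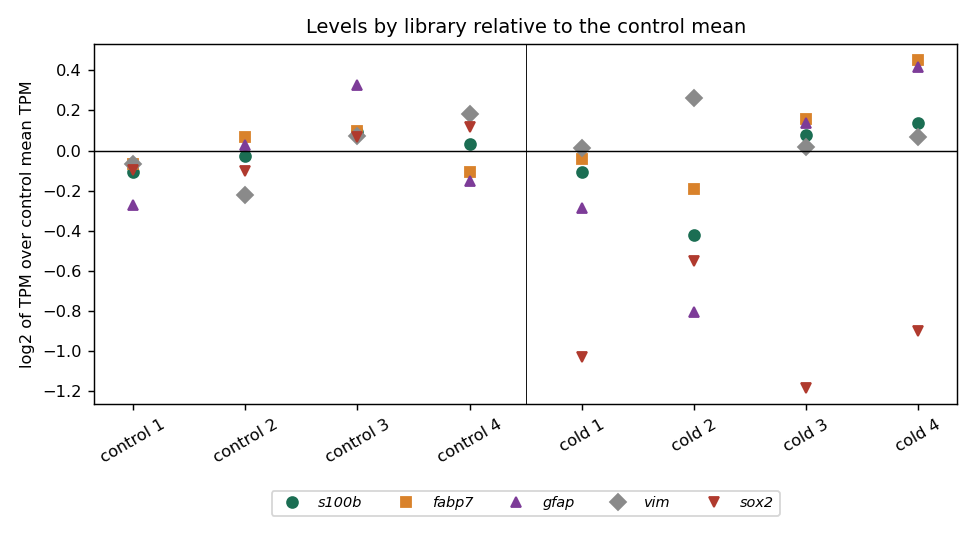
Levels of s100b, fabp7, gfap, vim and sox2 in each library as log2 of TPM over the gene's control mean; 0 is the control mean. In cold 2 the symbols of s100b, fabp7 and gfap sit lowest of the cold group while vim and sox2 sit highest, and all 4 cold values of sox2 lie below 0.

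Likeness of profiles was measured as the root-mean-square difference of centred log2(TPM + 1) over the 8 libraries, among 9218 genes whose identifier is a symbol. The nearest profile to gfap was that of slc4a4 (difference 0.124), the sodium bicarbonate cotransporter of astroglia, followed by nf2, the merlin gene (0.153). In slc4a4 the same extremes recurred, 70.4 TPM in cold 2 and 154 TPM in cold 4. Nearest to s100b was qki (0.0383), which encodes an RNA-binding protein of glia, and then tbc1d10a (0.0609), a regulator of Rab GTPases. Profiles nearest to fabp7 were those of the mitochondrial nucleotide carrier gene slc25a33 (0.0711) and the chromatin gene baz1a (0.0714). The translation factor gene eif3h (0.0544) and gemin2 (0.0579), of small nuclear RNP assembly, were nearest to vim. Both genes nearest to sox2, the lipase gene abhd6 (0.0990) and the transporter gene mfsd5 (0.101), were lower in cold (27.5 to 14.9 TPM and 12.01 to 5.40 TPM). Nearest to rsph9 were ehd2 (0.0850), of caveolae, and the smooth muscle myosin gene myh11 (0.0857). Their means were 18.2 and 11.1 TPM for ehd2 and 11.5 and 6.39 TPM for myh11 in control and cold. Since likeness includes the difference between groups, the direction of these genes follows from how they were chosen.

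In the wider astroglia list, 4 of 52 tested genes rose and 17 fell, or 7.69% and 32.7%, against 13.0% and 23.6% of all tested genes. The list's median log2 change was -0.17, against -0.089 over all genes, and without the members and copies it was -0.20 (4 higher and 14 lower of 44). Without control 4 and cold 2, 4 rose and 11 fell (21.2%, near the 18.5% of all tested genes in that fit). The summed level of the list's 54 genes overlapped between groups, with 12837.2 to 14035.9 TPM in control and 11225.7 to 13593.2 TPM in cold.

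The 4 rises were those of hopx, id3, cd9a and notch1a. The gene hopx, whose homeodomain protein marks quiescent neural stem cells and astrocytes in mammals, measured 156, 141, 141 and 158 TPM in control and 319.8, 328, 356 and 329.8 TPM in cold. All cold libraries lay above all control libraries, and the log2 change of 1.16 ± 0.059 (limma adjusted p = 5.85e-06) was the largest rise of the list. The gene id3, an inhibitor of neurogenic bHLH factors, rose from 49.3 ± 4.02 to 96.1 ± 10.6 TPM. The related gene id1, named after its values were seen, was called lower. Its means were 226.8 TPM in control and 190.9 TPM in cold (log2 change -0.24, limma adjusted p = 0.0474). The tetraspanin gene cd9a rose from 139.6 ± 9.86 to 218 ± 17.1 TPM. The Notch receptor gene notch1a rose from 4.996 ± 0.959 to 7.35 ± 0.526 TPM, while notch3, a receptor of radial glia, fell from 34.4 ± 2.73 to 24.7 ± 2.57 TPM. The row named notch1 measured 10.9 ± 0.893 and 9.92 ± 1.36 TPM (limma adjusted p = 0.373). Limma's adjusted p values of the called genes in this paragraph other than hopx and id1 lay between 0.000116 for id3 and 0.0135 for notch1a.

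Besides sox2 and glula, the falls of lowest p included slc16a1a, a carrier of lactate and other monocarboxylates, from 8.54 ± 3.79 to 0.804 ± 0.122 TPM (-2.32 ± 0.26 on the log2 scale). The progenitor RNA-binding protein gene msi1 fell from 26.6 ± 1.11 to 18.7 ± 0.537 TPM. The gene mlc1, of an astroglial membrane protein, fell from 229 ± 6.73 to 188 ± 9.98 TPM. The connexin 43 gene gja1, whose channels couple astroglia, fell from 692 ± 29.5 to 548 ± 60.3 TPM, and lix1 fell from 4.34 ± 0.677 to 2.38 ± 0.588 TPM. Limma's adjusted p ran from 0.000267 for slc16a1a to 0.00910 for gja1.

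Further list genes were named after their values were seen. The brain aromatase gene cyp19a1b, which in teleosts is expressed by radial glia, measured 354, 351, 469 and 559 TPM in control and 259, 341, 213 and 203 TPM in cold. The groups came close at control 2 and cold 2 without overlapping, and the fall passed (log2 change -0.77 ± 0.20, limma adjusted p = 0.0143). The folate enzyme gene aldh1l1 fell from 16.6 ± 2.03 to 11.6 ± 1.51 TPM (adjusted p = 0.00939 by limma), but not without control 4 and cold 2 (adjusted p = 0.0553).

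Of the most abundant genes of the list, slc1a2 and aldocb did not pass. The glutamate transporter gene slc1a2 measured 1288 ± 61.5 and 1178 ± 18.3 TPM (log2 change -0.13 ± 0.049, limma adjusted p = 0.0692), with no overlap between groups. The aldolase gene aldocb measured 1964 ± 93.0 and 2023 ± 192 TPM (0.039 ± 0.076, adjusted p = 0.724), with overlapping groups. A second glutamate transporter gene, slc1a3a, measured 28.3 ± 2.77 and 27.3 ± 3.09 TPM (adjusted p = 0.712). The potassium channel gene kcnj10a measured 55.1 ± 5.85 and 40.7 ± 10.5 TPM (log2 change -0.46, adjusted p = 0.0655), and it passed as lower without cold 4 (-0.58, adjusted p = 0.0250). Both were named after their values were seen.

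**Figure D4:**
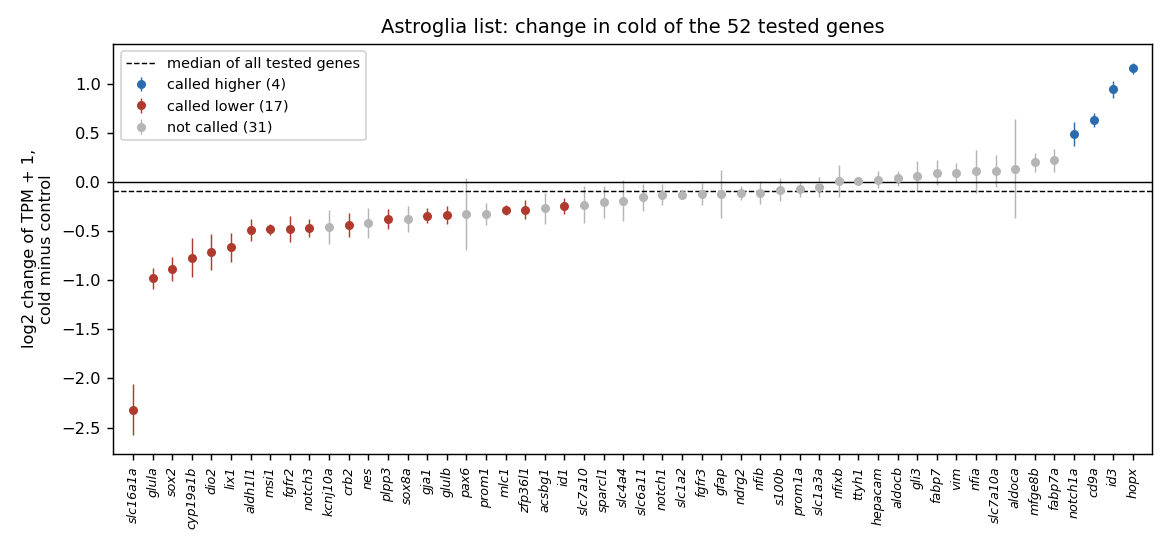
log2 change in cold of the 52 tested astroglia list genes with limma's SE, ordered by change; blue marks the 4 called higher, red the 17 called lower, and the dashed line the median of all tested genes (-0.089). The members s100b, gfap, fabp7 and vim sit among the uncalled genes close to 0, and sox2 near the lower end.

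For rsph9 the context is the motile cilium. No gene of a list of 96 motile cilium genes rose and 23 of the 85 tested (27.1%) fell, against 13.0% and 23.6% of all tested genes. At an unadjusted p under 0.05 limma gave 0 higher and 37 lower of the 85, against 3130 higher and 5609 lower of all 18863 tested genes. The log2 change was negative for 79 of the 85 (92.9%), against 60.1% of all genes, with a median of -0.34 against -0.089. The count of falls was 31 without control 1 (36.0%, against 20.1% of all tested genes in the same fit), 15 without control 2 (17.6% against 19.8%), 14 without control 4 (16.7% against 20.6%) and 14 without control 4 and cold 2 together (16.7% against 18.5%). With all 8 libraries and a replicate block the count of falls was 14 (16.5% against 19.2%). The share of falls thus lay above or below that of all genes depending on the libraries and the model used. Summed levels of the list did not overlap, with 345.6 to 453.1 TPM in control and 287.5 to 312.7 TPM in cold. Most of these genes are low, and the 85 tested are those of the 96 with a group mean of 1 TPM or more.

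The falls of lowest p besides rsph9 began with dnaaf1, an assembly factor of dynein arms, from 3.03 ± 0.703 to 0.907 ± 0.149 TPM (adjusted p = 0.000835 by limma). The cilium gene cfap298 fell from 16.9 ± 0.333 to 11.5 ± 1.51 TPM, ccdc113 from 3.27 ± 0.614 to 1.36 ± 0.458 TPM and the adenylate kinase gene ak7 from 7.15 ± 0.624 to 4.35 ± 0.802 TPM. A second dnal1 row (LOC100697732), of a dynein light chain, was at 1.14 to 2.46 TPM in control. In cold 1 and 2 it was at 0.640 and 0.480 TPM, and in cold 3 and 4 it was listed at 0. The more abundant row named dnal1 averaged 14.0 TPM in control and 11.9 TPM in cold. That row, added after its values were seen, did not pass (limma adjusted p = 0.218). The tubulin-binding protein gene tppp3 fell from 5.44 ± 2.25 to 1.64 ± 0.632 TPM. Among the falls in this paragraph, adjusted p was highest for tppp3, at 0.00889 by limma. The most abundant list genes besides cfap298 were cfap20 (33.7 ± 1.95 and 29.9 ± 1.94 TPM) and the ciliogenesis factor genes rfx2 (19.4 ± 2.65 and 18.0 ± 1.95 TPM) and rfx3 (14.2 ± 1.496 and 12.6 ± 1.62 TPM). None of these 3 passed (limma adjusted p = 0.0815, 0.502 and 0.243).

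Among further genes of the radial spoke, dnajb13 passed and the others named here did not. All but dnajb13 were named after their values were seen. The spoke J-domain protein gene dnajb13 fell from 6.02 ± 0.863 to 3.02 ± 0.745 TPM (adjusted p = 0.00314 by limma). The head protein genes rsph4a (3.79 ± 0.888 and 3.21 ± 0.764 TPM) and rsph1 (7.44 ± 3.21 and 5.68 ± 1.24 TPM) did not pass (limma adjusted p = 0.437 and 0.383). Nor did rsph3 (adjusted p = 0.420), rsph10b (1.23 ± 0.589 and 0.719 ± 0.173 TPM, adjusted p = 0.250) and rsph14 (2.89 ± 2.59 and 1.201 ± 0.507 TPM, adjusted p = 0.287). Of the cilium list, nme5 (2.70 and 1.30 TPM, log2 change -0.70) and ropn1l (1.67 and 1.30 TPM, -0.21) also missed the threshold (limma adjusted p = 0.0535 and 0.387). The ratio of the cold to the control mean was 0.583 for rsph10b and 0.416 for rsph14, against 0.576 for rsph9. It was 0.845 for rsph4a, 0.763 for rsph1, 0.778 for rsph3 and 0.502 for dnajb13. Control values of rsph14 ran from 0.546 TPM in control 1 to 6.56 TPM in control 4. The master ciliogenesis factor genes foxj1a (3.05 ± 1.197 and 1.71 ± 0.727 TPM) and foxj1b (5.04 ± 0.884 and 4.86 ± 0.728 TPM) did not pass either (limma adjusted p = 0.129 and 0.845), though foxj1a passed as lower without control 1 (adjusted p = 0.0337). The difference between rsph9 and the other spoke genes was not tested.

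**Figure D5:**
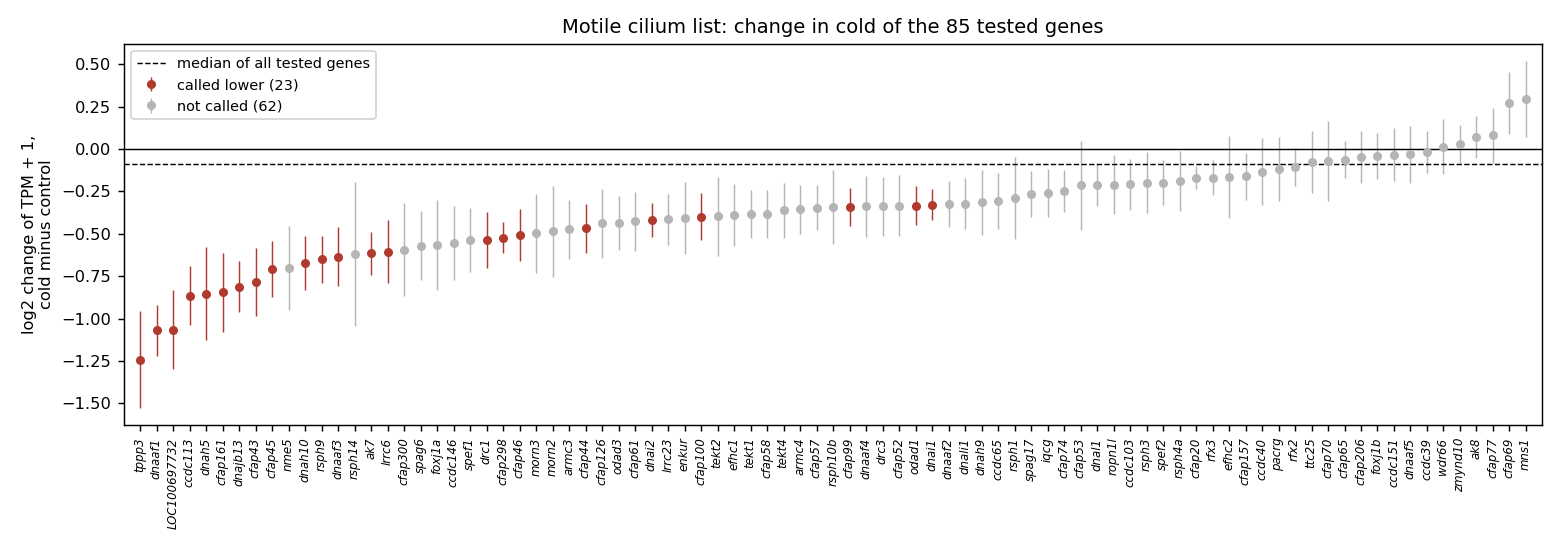
log2 change in cold of the 85 tested motile cilium genes with limma's SE, ordered by change; red marks the 23 called lower, grey the 62 not called, and the dashed line the median of all tested genes (-0.089). Most points lie below the dashed line, and the few above 0 are not called.

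Markers of other brain cells gave the following values. Of 21 neuronal genes 0 rose and 4 fell (19.0%), against 13.0% higher and 23.6% lower of all tested genes. At an unadjusted p under 0.05 limma gave 0 higher and 5 lower, against 3130 and 5609 of all 18863. The summed level of the neuronal list was 7966.3 to 8578.4 TPM in control and 7273.2 to 8547.8 TPM in cold. The synaptic gene snap25 (3808 ± 143 and 3798 ± 249.7 TPM) and stmn2a (961 ± 45.6 and 887 ± 72.0 TPM) led it and were not called. The neuronal falls, named after their values were seen, were those of elavl4 (log2 change -0.69), th (-0.51), gad2 (-0.47) and elavl3 (-0.40). Limma's adjusted p for them ran from 0.00226 for elavl4 to 0.0139 for th. Of 16 tested oligodendrocyte genes 1 rose (6.25%) and 5 fell (31.2%), with summed levels of 10043.8 to 13934.9 TPM in control and 10997.6 to 13160.4 TPM in cold. The myelin genes mbpa (8560.5 ± 1242 and 8128 ± 1041 TPM) and mpz (1421 ± 212 and 1579.6 ± 109 TPM) led the list and were not called. The falls were those of olig1 (log2 change -1.03), gpr17 (-1.10), sox10 (-0.76), nkx2.2a (-0.58) and olig2 (-0.45), and erbb3b rose (1.01). These genes were named after their values were seen, and their adjusted p by limma ran from 0.000115 for olig1 to 0.00489 for nkx2.2a. Of 11 microglial genes 1, aif1l, rose and 6 fell (54.5%), and of 10 endothelial genes 1, egfl7, rose and 5 fell (50.0%), against 23.6% of all tested genes. The rise of aif1l did not pass without control 3, control 4 or cold 3 (adjusted p = 0.0688, 0.0510 and 0.0508). Chosen after their values were seen, the microglial receptor gene p2ry12 fell from 25.2 to 2.25 TPM (log2 change -3.01 ± 0.17) and the myeloid factor gene spi1a from 7.67 to 3.24 TPM (-1.03 ± 0.17). The row named spi1 measured 11.8 and 14.1 TPM (0.25 ± 0.13) and did not pass (limma adjusted p = 0.156). The vascular growth factor receptor genes kdr and kdrl fell from 42.8 to 19.8 TPM (-1.10 ± 0.14) and from 25.2 to 14.0 TPM (-0.79 ± 0.14). Adjusted p of p2ry12, spi1a, kdr and kdrl by limma ran from 9.86e-06 for p2ry12 to 0.00254 for kdrl. Summed microglial levels were 1143.6 to 1769.9 TPM in control and 1486.0 to 1628.0 TPM in cold, led by apoeb (1133 ± 230.3 and 1330.1 ± 70.6 TPM), which passed as higher without control 4 (adjusted p = 0.00994). Summed endothelial levels were 192.7 to 233.2 and 164.0 to 223.0 TPM, led by egfl7 (32.5 ± 4.73 and 61.5 ± 11.1 TPM) and abcb4 (40.6 ± 4.12 and 37.7 ± 2.54 TPM). No marker in these lists was at 0 in all libraries.

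Of 3 erythrocyte genes none was called by limma (0 also at an unadjusted p under 0.05), with alas2 at 13.2 to 66.2 TPM in control and 19.1 to 85.1 TPM in cold and slc4a1a at 1.29 to 23.2 and 3.92 to 27.0 TPM. Of 23 tested genes of dividing cells and young neurons 6 rose (26.1%) and 1 fell (4.35%), against 13.0% and 23.6% of all tested genes. The gene birc5b was at 0 in all libraries. The replication clamp gene pcna rose from 31.6 ± 2.07 to 62.1 ± 7.33 TPM (adjusted p = 0.000103 by limma). The other rises, named after their values were seen, were mcm3 (log2 change 1.25), mcm6 (0.90), cdc20 (0.87), ccnb2 (0.60) and cdk1 (0.33). At means of 0.739 TPM in control and 1.59 TPM in cold, ccnb2 met the filter only through the cold group. Genes related to these, mcm2 (-0.13), mcm4 (-0.24), mcm5 (0.29), mcm7 (0.0062) and ccnb1 (-0.32), were not called. The log2 change was negative for 12 of the 23 genes (52.2%, against 60.1% of all tested genes), with a median of -0.021 against -0.089. The 1 fall, also named after its values were seen, was that of ascl1b (-0.85). The neuroblast gene dcx measured 89.5 ± 10.1 and 81.6 ± 5.51 TPM (adjusted p = 0.264), and mki67, named after its values were seen, 1.70 ± 0.281 and 1.12 ± 0.430 TPM (adjusted p = 0.128, and 0.0482 without cold 4). The part of other cell types in the changes of the glial genes was not tested.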

How the data were processed

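RNA sequencing of midbrain polyadenylated RNA covered 8 libraries, grouped by the labels into 4 control and 4 cold-exposed. Per the labels' protocols, RNA was taken with TRIzol, captured on poly(dT) beads and made into TruSeq libraries. The submitters' processing notes name HISAT2; no source at hand gives its version, the counter, the genome build or the annotation. The authors deposited 1 list of TPM values per library, with no header, each summing to 1000000. TPM keeps no absolute depth, so no counting interval is given, and 17842 to 18506 genes reached 1 TPM. Of 19370 identifiers starting with LOC, 19368 matched the RefSeq gene table of O_niloticus_UMD_NMBU and 6153 received a symbol. No coordinates are printed because the build of the files is not named.

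Genes averaging 1 TPM or more in the control or the cold group were tested on log2(TPM + 1) with limma (version 3.58.1, R version 4.3.3), using a trended variance prior, no robust estimation and no covariates. Tests were two-sided with Benjamini-Hochberg adjustment over all 18863 genes, and exact permutation tests used the 70 splits of 4 against 4 libraries. The fit was tested on simulated data. Means are given with SD and log2 changes with SE. Alternatives were a pseudocount of 0.1, no filter on low values, median-of-ratios scaling, robust estimation, a replicate block and leaving out libraries.

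The members and lists were chosen with earlier results of these data known. Named genes are the members and their copies, up to 8 called genes of lowest p in each direction and the 4 most abundant of the astroglia and motile cilium lists, the 2 most abundant of each other list, and the 2 genes nearest in profile to each member. Others are marked in the text. Listed genes matched by identifier, or by the table's symbol for LOC identifiers.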

Additional observations from a re-analysis of the deposited data

Results flagged for a closer look

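In groups of 4 libraries, the gap of the highest or lowest library to its nearest neighbour was compared with the group's range, over 140 groups of 70 named genes. Chance alone marks about 1 group in 20. No member or member copy was marked. Among astroglia list genes, notch1a stood out in cold 1 (8.13 TPM, others 6.98 to 7.175 TPM) and mlc1 in control 4 (239.1 TPM, others 224.9 to 227.1 TPM). Among cilium genes, dnaaf1 was high in control 4 (4.071 TPM, others 2.601 to 2.852 TPM), dnajb13 in cold 2 (4.141 TPM, others 2.637 to 2.679 TPM) and ccdc113 in control 3 (4.184 TPM, others 2.842 to 3.053 TPM), and rfx2 was low in cold 2 (15.06 TPM, others 18.55 to 19.14 TPM). Cold 2 was also low for mpz (1416 TPM, others 1626 to 1644 TPM) and tbc1d10a (6.41 TPM, others 9.1 to 9.616 TPM). Control 2 was high for dcx (104.7 TPM, others 83.99 to 85.46 TPM), sox21 (24.3 TPM, others 18.12 to 18.75 TPM) and slc4a1a (23.19 TPM, others 1.291 to 4.946 TPM). Cold 4 was high for the erythrocyte genes alas2 (85.05 TPM, others 19.12 to 29.44 TPM) and slc4a1a (27.01 TPM, others 3.917 to 7.802 TPM).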

How the results depend on the processing

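The falls of sox2 and rsph9 kept direction and call in all 14 alternatives, with log2 changes without 1 library from -1.001 to -0.80 and from -0.77 to -0.55. The other members passed in none of them. Without 1 library fabp7 ranged from -0.024 to 0.19, s100b (LOC100707896) from -0.15 to 0.038 and gfap from -0.30 to 0.11. Without control 4 and cold 2 the values of s100b and gfap were 0.049 and 0.061, and s100b was 0.012 after median-of-ratios scaling. The motile cilium falls (23) ranged from 14 to 31 without 1 library, and were 14 without control 4 and cold 2, a setting in which the astroglia falls were 11. Of 29 called genes that were followed in these fits and are no member, 25 kept their call throughout. Sign changed in uncalled genes after median-of-ratios scaling (snap25 0.083, mbpa 0.017, qki 0.049, tbc1d10a 0.062, slc1a3a 0.032, foxj1b 0.034), without control 4 and cold 2 (rfx2 0.054, snap25 0.016, qki 0.066, tbc1d10a 0.13, slc1a3a 0.063, foxj1b 0.051) and without 1 library (snap25 -0.040 to 0.023, mbpa -0.17 to 0.0088, alas2 -0.14 to 0.73, slc4a1a -0.074 to 1.105, qki -0.10 to 0.053, tbc1d10a -0.069 to 0.10, slc4a4 -0.34 to 0.032, nf2 -0.10 to 0.21, slc1a3a -0.10 to 0.029, foxj1b -0.12 to 0.027). The causes of these shifts were not tested. Same-numbered control and cold libraries did not deviate together (r from -0.226 to 0.0542 in 4 pairs). No pairing by number was thus seen, but 4 pairs are too few to exclude it. With the replicate block limma called 5642 genes, and 14 motile cilium genes were lower (16.5%, against 19.2% of all tested genes in that fit). There sox2 and rsph9 kept their calls, while glulb (limma adjusted p = 0.0514) and cyp19a1b (0.0544) did not pass and kcnj10a did (0.0376). Depth is unknown, so how far it limits the low cilium genes cannot be given.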
